A study of Mus musculus with 14 samples.

Results

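Transcription regulators reported in the literature as direct targets of miR-155 were examined in activated mouse B cells, as 10 genes of the 22232 in the deposited RPKM table. The genes were Bach1, Cebpb, Zfp652, Rcor1, Arid2, Tle4, Hivep2, Fosl2, Smad2 and Smad5, each taken by its symbol, and each had 1 row. RPKM is a read number divided by gene length and by library depth. B cells were taken from mouse spleen by negative selection, which leaves the wanted cells untouched, and were cultured for 96 h with bacterial lipopolysaccharide (LPS, 5 µg/ml) and interleukin-4 (IL-4, 10 ng/ml). The 3 genotypes were wild type (WT, 4 libraries), PU.1[155-/155-], in which the miR-155 site in the 3′ UTR of the PU.1 gene is mutated (PU.1 KI, 5 libraries), and miR-155[-/-], which lacks the microRNA (miR-155 KO, 5 libraries). The labels call the replicates biological. The alleles are germline, so every cell of the animals carried them during development as well as in culture. The sources used here do not give strain, age, sex or the sequencing pool of each library, so pool and genotype cannot be told apart. The level of miR-155 itself was not analysed here.

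A microRNA guides an Argonaute protein to matching sites in messenger RNAs, mostly in 3′ UTRs, and lowers the stability and translation of those messages. Pairing of the seed, the bases from 2 to 8 counted from the 5′ end of the microRNA, is the main determinant of a site. The strongest class, the 8mer, pairs the whole seed and has an A across from base 1. The 7mer-m8 pairs the seed without that A, the 7mer-A1 lacks the pair at base 8 but has the A, and the 6mer lacks both. miR-155 is induced when B cells are activated, and mice without it make weaker germinal centre and class-switched antibody responses. The 10 genes act in the nucleus as DNA-binding repressors or activators, as corepressor or chromatin-remodelling subunits, or as the nuclear effectors of TGF-β and BMP signalling.

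The mature mouse miR-155-5p of RefSeq (GRCm38.p6, chr16:84714143-84714165, plus strand) is shown first, with its seed in capitals. Below it stand the best seed matches of the regulators, with the second matches of the 3 genes whose matches lie closest together, written as DNA on the strand of the gene with the matched letters in capitals. They were read from the longest annotated 3′ UTR of each gene in GENCODE M21 (GRCm38), all within that UTR, and each window is 30 bases long. Smad2 is left out because its 3′ UTR held no match longer than a 6mer.
miR-155-5p: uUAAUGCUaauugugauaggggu
Zfp652 8mer, chr11:95764401-95764430, plus strand: gctgtgaggttagtccagAGCATTAActat
Zfp652 7mer-m8, chr11:95764493-95764522, plus strand: tgcgtttcacacaatatcaAGCATTAtaga
Cebpb 8mer, chr2:167690348-167690377, plus strand: agaaccttttccgtttcgAGCATTAAagtg
Bach1 8mer, chr16:87732170-87732199, plus strand: tctctctatgaacagtttAGCATTAAgggt
Bach1 7mer-m8, chr16:87732381-87732410, plus strand: taatagaaatatattgcatAGCATTAtaca
Smad5 7mer-A1, chr13:56738218-56738247, plus strand: agaactctaattttcctgtGCATTAAtctt
Smad5 7mer-m8, chr13:56738467-56738496, plus strand: agtcccctacaatgttatgAGCATTAttga
Fosl2 8mer, chr5:32156922-32156951, plus strand: gcctgaatagaaacagatAGCATTAAagta
Rcor1 7mer-m8, chr12:111115717-111115746, plus strand: cattgtggtgaatgtccatAGCATTAtaat
Tle4 8mer, chr19:14448161-14448190, minus strand: tgtgcattcagacttttaAGCATTAAacat
Arid2 8mer, chr15:96402451-96402480, plus strand: gtgagcagatgaaatagaAGCATTAAatat
Hivep2 8mer, chr10:14150482-14150511, plus strand: aaatggatagtaccgtaaAGCATTAAagta

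The letters searched on the strand of the gene were AGCATTAA for the 8mer, AGCATTA for the 7mer-m8, GCATTAA for the 7mer-A1 and GCATTA for the 6mer, and a match was counted once, under its longest class. An 8mer stood in the UTRs of 7 of the 10 genes, and a 7mer-m8 was the best match of Smad5 and Rcor1. Of the UTRs of all tested genes, 3.32% held an 8mer and 13.6% a match of 7 or more letters. Published targets are often picked by such matches, so this excess is a description and not a result. A match of 7 or more letters occurred more than once in 6 genes: Zfp652, Bach1, Smad5, Rcor1, Arid2 and Hivep2. The bases between these matches numbered 85 in Zfp652, 204 in Bach1, 242 in Smad5, 308 in Arid2, 494 in Hivep2 and 1102 in Rcor1. In Cebpb and Tle4 the 8mer lay close to the end of the annotated UTR, with 45 and 15 nt after it.

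**Figure D1:**
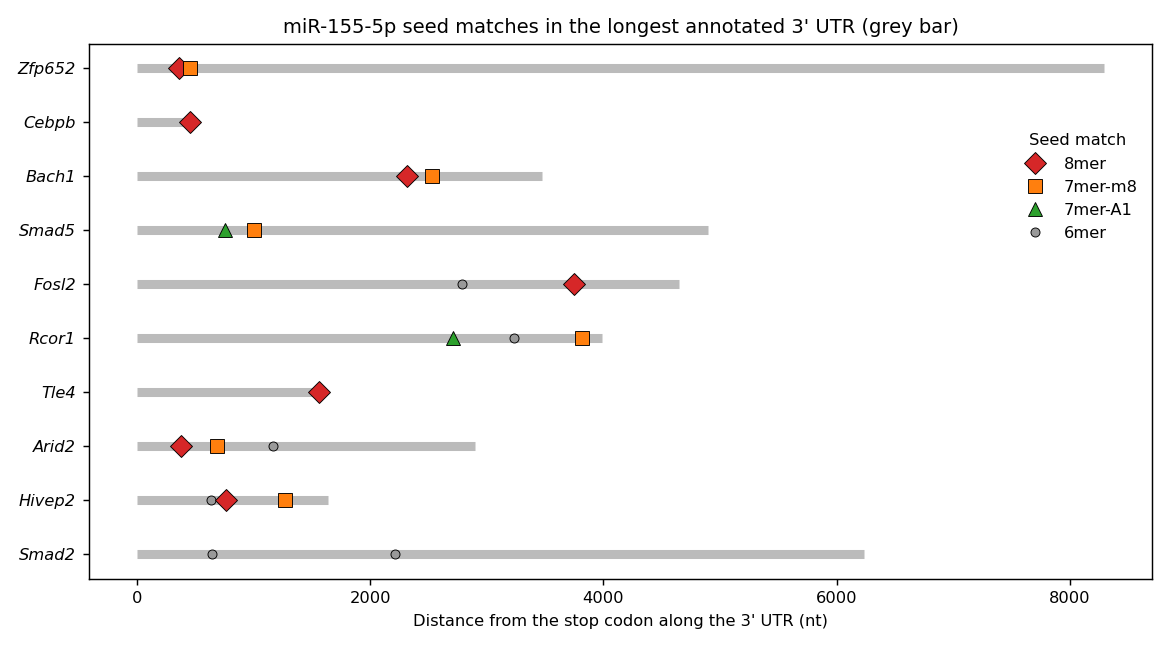
Position of each miR-155-5p seed match (symbols by class) in nt from the stop codon along the longest annotated 3′ UTR of each gene (grey bars). The first matches of Zfp652 and Arid2 lie 360 and 375 nt from the stop codon, those of Bach1 and Rcor1 at 2317 and 2712 nt, and Smad2 has only 6mers.

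The 14 libraries held 31.5 to 52.5 M reads, recovered from the steps of the low RPKM values, of which 72.8% to 81.2% per library came out within 0.01 of a whole read. A test was made on log2(RPKM + 0.5) with limma, with p-values adjusted by Benjamini-Hochberg over the 9627 rows in which 4 or more libraries reached 1 RPKM, and a call is an adjusted p under 0.05. On this scale differences of genes near or below 1 RPKM are understated. The 10 B cell markers summed to 1580 to 1823 RPKM in WT, 1633 to 1894 in PU.1 KI and 1432 to 1555 in miR-155 KO, where every library was below every WT library, with Cd79a at 476 RPKM in WT and 336 in miR-155 KO and Ms4a1 at 144 and 84.9. The part of that shift in the results for the regulators was not tested. On the first principal component WT 1 stood apart from the other WT libraries (-15.4 against -18.1 or below) and miR-155 KO 5 from the other miR-155 KO libraries (19.8 against 24.2 or above). Sfpi1, the gene of PU.1, was 21.1 to 25.96 RPKM in PU.1 KI and 9.73 to 13.2 in WT, and 15.5 to 18.3 in miR-155 KO, so every library of either mutant lay above every WT library. The deleted gene of miR-155 KO was not analysed here.

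In miR-155 KO, 8 of the 10 regulators were higher than in WT and none was lower. With no filter on low values, which lets all 10 be tested among 16526 rows, limma called these 8 higher, where 23.1% of all rows were called higher. With the filter Hivep2 was not tested, and Cebpb and Fosl2 passed it through the miR-155 KO libraries together with 1 PU.1 KI library of Cebpb. The share called among the filtered rows was 62.5%, with 27.2% higher and 35.3% lower. All 8 had every miR-155 KO library above every WT library, which held in the same direction for 23.5% of the filtered rows. The ratio of mean RPKM ran from 1.27 for Arid2 to 2.97 for Cebpb. The 8 calls were the same in number without each library in turn, WT 1 and miR-155 KO 5 included. Bulk RNA cannot tell more cells of a type from more RNA per cell.

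**Figure D2:**
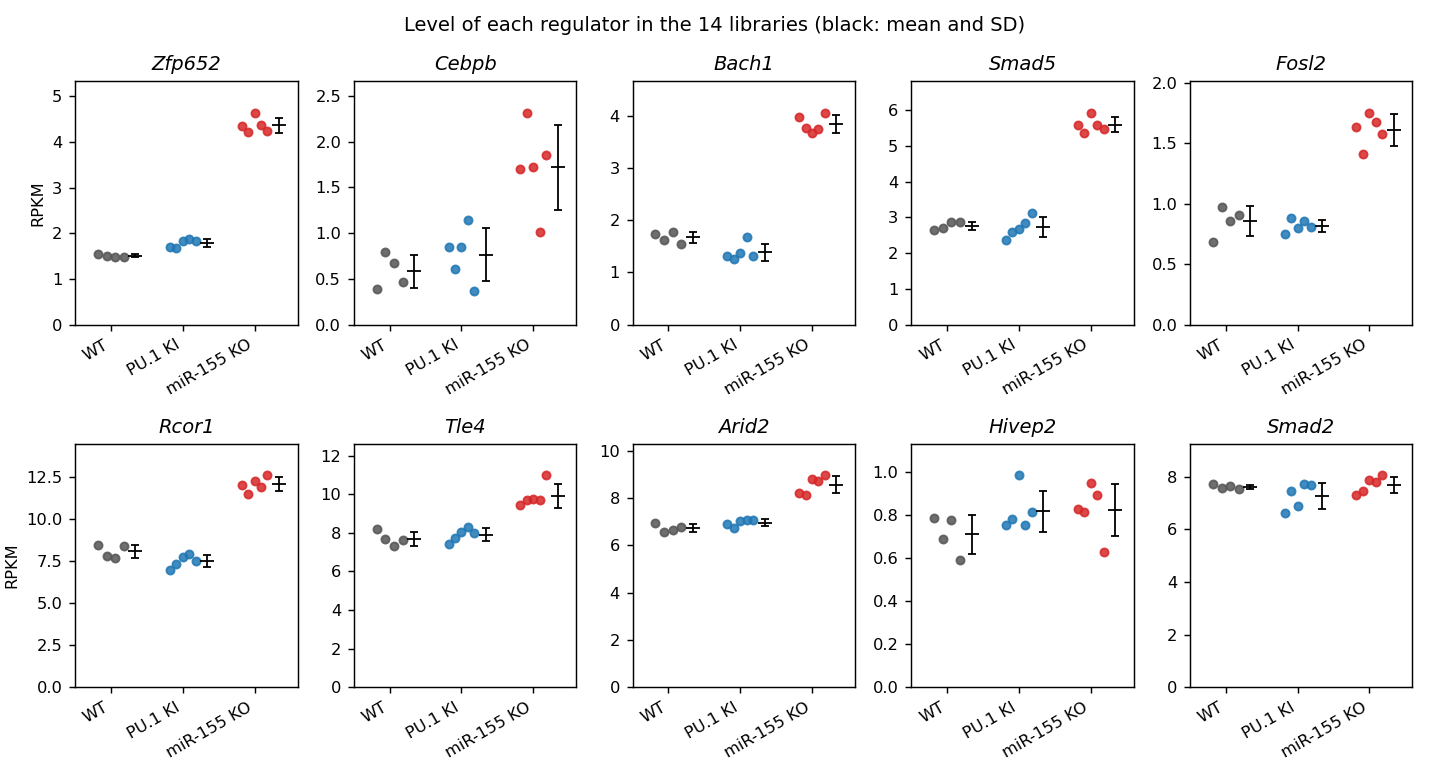
RPKM of the 10 regulators in each library (points, by genotype), with the mean and SD of the group in black, each panel on its own scale from 0. The miR-155 KO points lie above all WT points in 8 panels and overlap them for Hivep2 and Smad2.

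Zfp652 encodes a zinc finger protein that binds DNA and represses transcription with corepressors of the ETO family. On NCBIM37, the build of the deposited table, the gene (ENSMUSG00000075595) spans 95573987 to 95633667 of chromosome 11, plus strand. WT libraries gave 1.55, 1.50, 1.49 and 1.48 RPKM, the PU.1 KI libraries 1.71, 1.68, 1.84, 1.87 and 1.83, and the miR-155 KO libraries 4.36, 4.23, 4.64, 4.37 and 4.24. The 3 genotypes did not overlap: WT was lowest, PU.1 KI slightly higher, and miR-155 KO far above both. The mean was 1.50 ± 0.032 RPKM in WT (SD, n = 4), 1.78 ± 0.083 in PU.1 KI (n = 5) and 4.37 ± 0.17 in miR-155 KO (n = 5), and these n hold for all genes below. The log2 difference between miR-155 KO and WT was 1.28 ± 0.05 (SE, limma adjusted p = 1.78e-13), which placed Zfp652 at rank 146 of 9627 from the highest. Its 8mer and 7mer-m8 were the closest pair of matches among the 10 genes. B130006D01Rik overlaps Zfp652 on the same strand, at a mean of 0.401 RPKM, and how the counting treated shared reads is not stated in the labels.

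Bach1 is a repressor that pairs with small Maf proteins on antioxidant response elements, where it competes with the activator Nrf2 and is released by heme. Its gene (ENSMUSG00000025612) spans 87699190 to 87733591 of chromosome 16, plus strand, in NCBIM37. miR-155 lies on the same chromosome: in GRCm38 miR-155-5p is at 84714143 to 84714165 and the Bach1 8mer at 87732188 to 87732195. The part of sequence linked to the deleted locus in the level of Bach1 in miR-155 KO was not tested. Bach1 was measured in the WT libraries at 1.74, 1.63, 1.77 and 1.55 RPKM, in the PU.1 KI libraries at 1.31, 1.25, 1.37, 1.68 and 1.31, and in the miR-155 KO libraries at 3.98, 3.76, 3.67, 3.75 and 4.06. Both mutants differed from WT in opposite directions, with miR-155 KO apart from all other libraries and PU.1 KI overlapping WT through a single library, PU.1 KI 4. The mean was 1.67 ± 0.10 RPKM in WT, 1.38 ± 0.17 in PU.1 KI and 3.84 ± 0.17 in miR-155 KO. The log2 difference of miR-155 KO from WT was 1.00 ± 0.07 (limma adjusted p = 1.66e-10).

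Of the 6 tested partners and relatives of Bach1, 3 were called higher and 1 lower in miR-155 KO against WT. This count, and that of each partner and target list below, stands beside 27.2% of all rows called higher and 35.3% lower. Nfe2l2, which encodes Nrf2, was 4.16 ± 0.20 RPKM in WT and 12.7 ± 0.90 in miR-155 KO (log2 difference 1.50 ± 0.06, adjusted p = 8.85e-14). The related Nfe2l1 and the small Maf gene Mafg were also higher, by 0.83 and 0.79. The call in the other direction was another small Maf gene, Mafk (-0.92), named here after its value was seen. Of 12 tested genes known as targets of Bach1 and Nrf2, 7 were called higher and 1 lower. Fth1, the ferritin heavy chain, was 239 ± 14.7 RPKM in WT and 447 ± 33.4 in miR-155 KO (0.90 ± 0.07, adjusted p = 9.89e-10). Hmox1, heme oxygenase, was 2.42 ± 0.32 and 5.30 ± 0.81 RPKM (0.99 ± 0.11, adjusted p = 2.04e-07), and the quinone reductase gene Nqo1 was 0.278 ± 0.088 and 1.72 ± 0.65 (1.48 ± 0.14, adjusted p = 2.54e-08). Nqo1 passed the filter through the miR-155 KO libraries alone, so it could enter this count only as a gene high in miR-155 KO. The repressor, its competitor and these 3 targets were thus higher in the same libraries.

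Cebpb encodes C/EBPβ, a basic leucine zipper factor of macrophages and of acute inflammatory responses. Cebpb (ENSMUSG00000056501) spans 167514415 to 167515918 of chromosome 2, plus strand, in NCBIM37. For Cebpb the WT libraries held 0.392, 0.790, 0.677 and 0.462 RPKM, the PU.1 KI libraries 0.846, 0.613, 0.853, 1.14 and 0.371, and the miR-155 KO libraries 1.70, 2.32, 1.72, 1.01 and 1.85. Every miR-155 KO library was above every WT library, but miR-155 KO 4 was below PU.1 KI 4. The recovered reads behind these values were 26 to 48 in WT, 21 to 81 in PU.1 KI and 59 to 177 in miR-155 KO. Cebpb had the widest error of the 10 genes, and the part of counting in that error was not tested. The log2 difference of miR-155 KO from WT was 1.03 ± 0.17 (95% interval 0.67 to 1.38, limma adjusted p = 3.21e-05). With no filter on low values the interval was 0.61 to 1.45 (limma adjusted p = 0.000645). The 8mer 454 nt after the stop codon is its single match.

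Of 5 tested genes listed with Cebpb, 4 were called higher and 1, Cebpz (-0.62), lower in miR-155 KO against WT. The 4 higher genes encode leucine zipper proteins, and Cebpz is not counted among these here. Atf5 was 15.7 ± 2.7 RPKM in WT and 63.2 ± 6.8 in miR-155 KO (1.98 ± 0.11, adjusted p = 1.43e-11). Ddit3, the stress-induced dimer partner CHOP, was 7.995 ± 0.50 and 28.3 ± 3.8 RPKM (1.75 ± 0.08, adjusted p = 1.76e-12). Cebpg was 6.54 ± 0.46 and 11.5 ± 0.60 RPKM (0.77 ± 0.06, adjusted p = 3.31e-09). These relatives were far more abundant than Cebpb itself in every genotype.

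Because Cebpb and Bach1 are prominent in myeloid cells, markers of other cell types were read in the same libraries. Of 13 macrophage markers 1, Cd68, had a mean of at least 1 RPKM, and C1qa was at 0 in every library. Their summed level was 6.64 to 7.72 RPKM in WT, 10.6 to 12.3 in PU.1 KI and 6.23 to 6.81 in miR-155 KO, most of it Cd68, which was 6.80 RPKM in WT and 5.08 in miR-155 KO. Among the low ones, Emr1 and Itgam were 0.200 and 0.0499 RPKM in WT, 0.253 and 0.126 in PU.1 KI and 0.738 and 0.331 in miR-155 KO, and Cd14, Mertk, Mrc1 and C1qb, each below 0.07 RPKM in every mean, were also higher in miR-155 KO than in WT. Csf1r and Lyz2 went the other way, from 0.110 and 0.0961 RPKM in WT to 0.0496 and 0.0863 in miR-155 KO. The part of the macrophage markers in the results was not tested. The summed neutrophil markers stayed between 0.0686 and 0.160 RPKM in all libraries, with 5 of 10, among them Ly6g and S100a8, at 0 everywhere. Markers of mast cells and basophils summed to 0.00863 to 0.0392 RPKM in WT, 0.0242 to 0.0791 in PU.1 KI and 0.115 to 0.215 in miR-155 KO, nearly all of it Kit, with Fcer1a, Mcpt8 and Ms4a2 at 0. Of 10 T cell markers 1, Lck, had a mean of at least 1 RPKM over all libraries, and the sum was 7.22 to 8.86 RPKM in WT, 6.31 to 7.69 in PU.1 KI and 6.85 to 7.89 in miR-155 KO. Lck was lower in miR-155 KO than in WT, at 5.33 and 7.64 RPKM, while Cd5 was 1.03 and 0.231 and Cd8a 0.645 and 0.0307, with Cd3e at 0.0184 and 0.0039. The 6 dendritic cell markers summed to 15.8 to 20.1 RPKM in WT, 25.4 to 32.1 in PU.1 KI and 23.7 to 30.4 in miR-155 KO, almost wholly from Flt3 and Zbtb46, while Itgax, Siglech and Clec9a were below 0.03 RPKM in the mean of every genotype. The 6 plasma cell markers summed to 417 to 501 RPKM in WT, 224 to 344 in PU.1 KI and 267 to 406 in miR-155 KO. Most of it was Igj, at 282, 132 and 153 RPKM, and Xbp1, at 134, 106 and 107. Prdm1 and Tnfrsf17 were also lower in both mutants than in WT. Irf4 went the other way, at 37.9 RPKM in WT, 49.5 in PU.1 KI and 60.1 in miR-155 KO. Sdc1 was 1.43, 1.14 and 1.69 RPKM in the same order. The part of these differences in the results for the regulators was not tested.

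Fosl2 encodes Fra-2, a Fos family subunit of the AP-1 dimer. Fosl2 (ENSMUSG00000029135) spans 32438845 to 32460204 of chromosome 5, plus strand, in NCBIM37. Levels in the WT libraries were 0.681, 0.972, 0.855 and 0.910 RPKM, in the PU.1 KI libraries 0.752, 0.879, 0.796, 0.854 and 0.804, and in the miR-155 KO libraries 1.64, 1.41, 1.75, 1.68 and 1.58. WT and PU.1 KI occupied the same range and every miR-155 KO library was above both. The log2 difference of miR-155 KO from WT was 0.64 ± 0.07 (limma adjusted p = 2.9e-07, and 3.56e-06 with no filter on low values). Of the 9 other tested AP-1 genes 2 were called higher and 5 lower, beside 27.2% and 35.3% of all rows. Jdp2, a dimer partner that represses AP-1 sites, was 2.78 ± 0.16 RPKM in WT and 15.4 ± 1.9 in miR-155 KO (2.27 ± 0.09, adjusted p = 5.74e-14). Fos was 44.0 ± 16.4 and 10.6 ± 2.8 RPKM (-1.95 ± 0.24, adjusted p = 9.37e-07), and Fosb was 6.78 ± 3.0 and 0.885 ± 0.45 RPKM (-2.35 ± 0.29, adjusted p = 9.36e-07).

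Smad5 and Smad2 are receptor-regulated SMADs, which enter the nucleus with Smad4 once phosphorylated by BMP receptors (Smad5) or TGF-β and activin receptors (Smad2). Smad5 (ENSMUSG00000021540) spans 56804371 to 56843738 of chromosome 13 and Smad2 (ENSMUSG00000024563) spans 76401234 to 76465385 of chromosome 18, both plus strand in NCBIM37. For Smad5 the WT libraries held 2.66, 2.69, 2.87 and 2.86 RPKM, the PU.1 KI libraries 2.38, 2.59, 2.66, 2.85 and 3.12, and the miR-155 KO libraries 5.59, 5.37, 5.93, 5.60 and 5.48. Every miR-155 KO library stood well above the rest, and WT lay inside the range of PU.1 KI. The log2 difference of miR-155 KO from WT was 0.90 ± 0.06 (limma adjusted p = 3.73e-10). For Smad2 the WT libraries held 7.71, 7.56, 7.66 and 7.53 RPKM, the PU.1 KI libraries 6.63, 7.47, 6.89, 7.74 and 7.68, and the miR-155 KO libraries 7.31, 7.45, 7.87, 7.79 and 8.05. All 3 genotypes of Smad2 overlapped. Its log2 difference of miR-155 KO from WT was 0.013 (95% interval -0.10 to 0.13, limma adjusted p = 0.849), so the interval leaves out a rise as large as that of any of the 8 regulators called.

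Of 17 tested receptors, SMADs and inhibitors of this pathway, 8 were called higher and 5 lower in miR-155 KO against WT. Smad4, the common partner, was 10.1 ± 0.45 RPKM in WT and 20.0 ± 0.88 in miR-155 KO (0.95 ± 0.06, adjusted p = 1.54e-10). The corepressor gene Ski was 1.50 ± 0.27 and 3.26 ± 0.35 RPKM (0.91 ± 0.09, adjusted p = 5.51e-08), and the type II BMP receptor gene Bmpr2 was 0.631 ± 0.081 and 1.25 ± 0.074 (0.63 ± 0.07, adjusted p = 1.44e-07). Bmpr2 also passed the filter through the miR-155 KO libraries alone, so it could enter the count only as a gene high there. Of 6 tested genes known to respond to SMADs, with Skil, Smad7 and Tgif1 in both lists, 1 was called higher and 4 lower. Id2 was 2.22 ± 0.37 RPKM in WT and 1.04 ± 0.16 in miR-155 KO (-0.82 ± 0.09, adjusted p = 2.1e-07) and Pmepa1 was lower by -0.29 ± 0.08 (adjusted p = 0.00545). Tgif1, a SMAD corepressor, was higher by 0.43 ± 0.06 (adjusted p = 5.35e-06).

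Rcor1 encodes CoREST, the scaffold that joins the histone demethylase LSD1 to HDAC1 and HDAC2. Rcor1 (ENSMUSG00000037896) spans 112277561 to 112354112 of chromosome 12, plus strand, in NCBIM37. The WT level was 8.43, 7.79, 7.69 and 8.40 RPKM, in the PU.1 KI libraries 6.97, 7.33, 7.74, 7.90 and 7.49, and in the miR-155 KO libraries 12.0, 11.5, 12.3, 11.9 and 12.6. The miR-155 KO libraries were apart from the rest, and PU.1 KI overlapped WT from below. The log2 difference of miR-155 KO from WT was 0.55 ± 0.05 (limma adjusted p = 3.7e-08). Of 12 other tested genes of the complex and of factors that recruit it, 5 were called higher and 3 lower. The paralog Rcor2 was 1.91 ± 0.13 RPKM in WT and 0.962 ± 0.15 in miR-155 KO (-0.73 ± 0.07, adjusted p = 6.49e-08), opposite to Rcor1. Hdac1 was also lower (-0.40 ± 0.05, adjusted p = 4.31e-06), and Phf21a, which reads unmethylated histone H3 tails for the complex, was higher (0.50 ± 0.07, adjusted p = 3.12e-06).

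Tle4 is a Groucho family corepressor that binds TCF, Runx and Pax factors and has no DNA-binding domain of its own. Tle4 (ENSMUSG00000024642) spans 14522562 to 14672473 of chromosome 19, minus strand, in NCBIM37. For Tle4 the WT libraries held 8.17, 7.65, 7.29 and 7.63 RPKM, the PU.1 KI libraries 7.42, 7.75, 8.06, 8.31 and 7.98, and the miR-155 KO libraries 9.42, 9.72, 9.73, 9.71 and 10.97. WT and PU.1 KI overlapped throughout, and miR-155 KO was above both, with miR-155 KO 5 highest. The log2 difference of miR-155 KO from WT was 0.35 ± 0.06 (limma adjusted p = 2.38e-05), and 0.31 without miR-155 KO 5. Of 11 tested Groucho and ETO corepressors and their DNA-binding partners, 6 were called higher and 4 lower. Tcf7, which encodes TCF1, was 1.66 ± 0.19 RPKM in WT and 5.79 ± 0.25 in miR-155 KO (1.55 ± 0.08, adjusted p = 5.01e-12). The paralog Tle3 was 7.67 ± 0.79 and 3.39 ± 0.20 RPKM (-1.07 ± 0.08, adjusted p = 7.15e-10), and Cbfa2t3, an ETO family corepressor, was 5.21 ± 0.71 and 2.63 ± 0.33 (-0.86 ± 0.09, adjusted p = 1.91e-07). Tle4 was thus higher and Tle3 lower in the same libraries.

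Arid2 is the subunit that defines the PBAF form of the SWI/SNF chromatin remodeller. Arid2 (ENSMUSG00000033237) spans 96117953 to 96235894 of chromosome 15, plus strand, in NCBIM37. WT libraries had 6.96, 6.57, 6.64 and 6.80 RPKM, the PU.1 KI libraries 6.89, 6.72, 7.04, 7.06 and 7.06, and the miR-155 KO libraries 8.21, 8.14, 8.80, 8.71 and 8.96. The rise in miR-155 KO was small, but no library of it reached down to the others. The log2 difference from WT was 0.32 ± 0.05 (limma adjusted p = 1.12e-05), the smallest of the 8 calls. Of 17 other tested SWI/SNF genes, 2 were called higher and 6 lower in miR-155 KO, shares near or below the 27.2% and 35.3% of all rows, and 4 and 6 after median-of-ratios scaling. Phf10, also a PBAF subunit, was 24.3 ± 2.0 RPKM in WT and 52.0 ± 2.5 in miR-155 KO (1.08 ± 0.07, adjusted p = 1.2e-10). Actl6a and Smarce1, subunits shared by the forms of the complex, were lower by -0.35 ± 0.07 and -0.27 ± 0.06 (adjusted p = 0.000272 and 0.000638).

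Hivep2 encodes a large zinc finger protein that binds NF-κB-like motifs. Hivep2 (ENSMUSG00000015501) spans 13686185 to 13871182 of chromosome 10, plus strand, in NCBIM37. Per library, WT had 0.784, 0.687, 0.779 and 0.590 RPKM, the PU.1 KI libraries 0.753, 0.781, 0.984, 0.753 and 0.814, and the miR-155 KO libraries 0.826, 0.816, 0.947, 0.894 and 0.629. The 3 genotypes overlapped. With no filter on low values, the log2 difference of miR-155 KO from WT was 0.13 (95% interval -0.041 to 0.29, limma adjusted p = 0.213), on a scale that understates differences at this level. Hivep2 thus had an 8mer and a 7mer-m8 in its annotated UTR and no call. Its relatives differed from each other: Hivep1 was 11.8 ± 0.38 RPKM in WT and 19.0 ± 0.74 in miR-155 KO (0.67 ± 0.06, adjusted p = 7.03e-09), and Hivep3 was 11.9 ± 0.58 and 9.61 ± 0.90 (-0.29 ± 0.07, adjusted p = 0.00102). Both of these were called higher in PU.1 KI against WT.

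**Figure D3:**
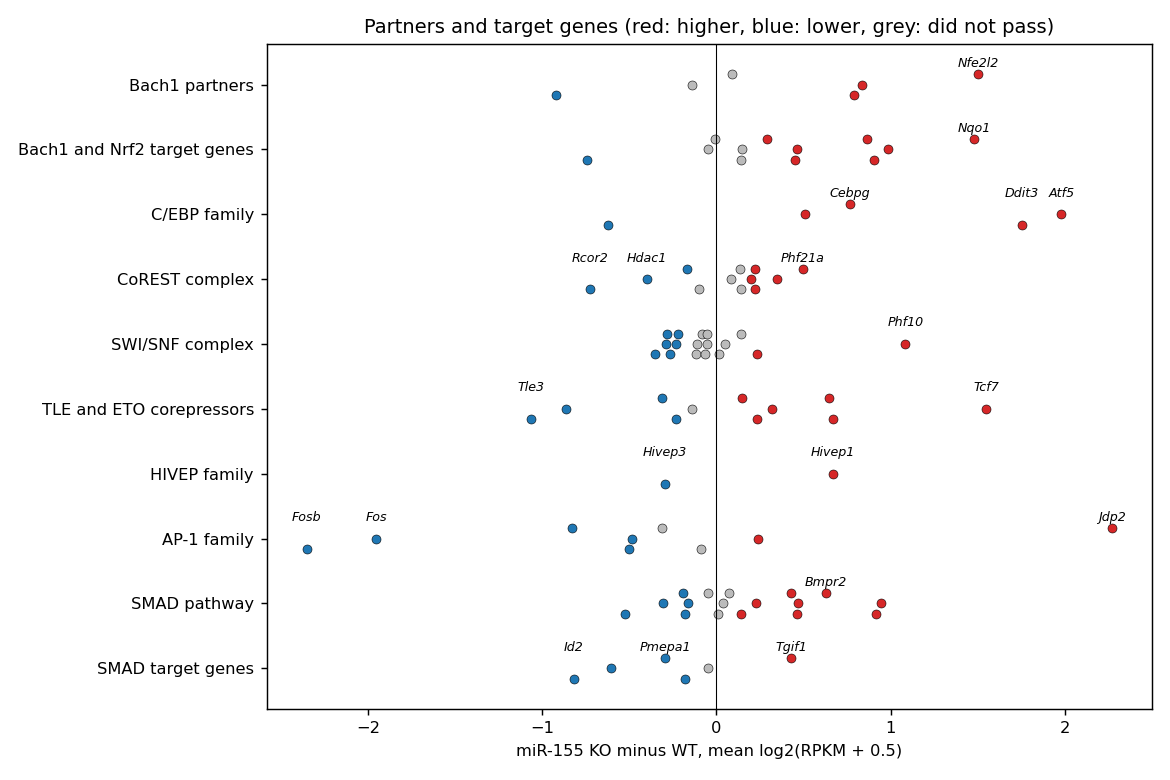
Difference between miR-155 KO and WT in mean log2(RPKM + 0.5) for every tested gene of the partner and target lists (points, 1 row per list), with called genes coloured. Calls of both directions stand in every list, with Jdp2 at 2.27 and Fosb at -2.35.

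In PU.1 KI, where miR-155 is intact and a single target site is mutated, 2 of the 10 regulators were called against WT, 1 in each direction, and the WT libraries are the same as in the comparison above. Among all rows 27.7% were called, 23.7% higher and 4.03% lower. Zfp652 was higher by a log2 difference of 0.19 ± 0.05 (limma adjusted p = 0.0109), with no overlap between the libraries, as for 18.4% of all rows in that direction. Beside this its difference in miR-155 KO was 1.28. Bach1 was lower by -0.21 ± 0.07 (adjusted p = 0.0217), with overlap, against a rise of 1.00 in miR-155 KO. The Bach1 call was lost without WT 1 (-0.20, adjusted p = 0.0651), WT 3 (-0.19, adjusted p = 0.0646) or PU.1 KI 2 (-0.19, adjusted p = 0.0567). The other 8 were not called, with log2 differences of -0.10 for Rcor1, -0.063 for Smad2, -0.036 for Fosl2, -0.026 for Smad5, 0.041 for Arid2, 0.038 for Tle4, 0.21 for Cebpb and, with no filter, 0.12 for Hivep2. The interval of Cebpb, -0.14 to 0.57, leaves room for a sizeable rise, whereas those of Smad5 (-0.16 to 0.10) and Fosl2 (-0.19 to 0.11) do not reach their differences in miR-155 KO.

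The small differences in PU.1 KI depended on how libraries were scaled. The median of all tested genes was 0.076 above WT in PU.1 KI as deposited, and -0.0057 after median-of-ratios scaling, which divides each library by a size factor set so that the typical gene is equal. Under that scaling 17.5% of rows were called higher and 15.7% lower, the rise of Zfp652 became 0.12 (limma adjusted p = 0.0688), and 3 regulators were called lower: Bach1 (-0.28, adjusted p = 0.00155), Rcor1 (-0.19, adjusted p = 0.00322) and Smad2 (-0.15, adjusted p = 0.0132). Quantile normalization called Fosl2 lower as well (-0.18, adjusted p = 0.0356), with 15.8% of rows higher and 16.1% lower. The lower level of Bach1 was thus called under all 3 scalings, and the rise of Zfp652 as deposited alone. The 8 calls in miR-155 KO against WT were made under each of them, where median-of-ratios scaling called 34.4% of all rows higher and quantile normalization 31.2%. With no filter, Zfp652 and Bach1 were again the regulators called in PU.1 KI, among 14.5% of rows called higher and 3.14% lower.

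The calls in the partner and target lists in PU.1 KI against WT also moved with the scaling. As deposited, where 23.7% of all rows were called higher and 4.03% lower, 3 of 6 Bach1 partners were called higher and 0 lower. Of the 12 Bach1 and Nrf2 targets, 2 were called higher and 1 lower. For the C/EBP list the calls were 4 higher and 0 lower of 5, for the Groucho and ETO list 4 and 0 of 11, and for SWI/SNF 4 and 1 of 17. After median-of-ratios scaling, with 17.5% of all rows called higher and 15.7% lower, they were 2 and 0 for the Bach1 partners. They were then 2 and 3 for the Bach1 and Nrf2 targets, 4 and 1 for the C/EBP list, 3 and 2 for the Groucho and ETO list and 4 and 5 for SWI/SNF. The AP-1 list had 4 higher and 2 lower of 9 as deposited, and 3 and 2 after that scaling. The CoREST list went from 2 and 1 of 12 to 1 and 2, and the SMAD pathway from 5 and 2 of 17 to 3 and 3. The SMAD targets had 1 and 2 of 6 both as deposited and after that scaling.

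Between the mutants, 8 of the 10 regulators were called higher in miR-155 KO than in PU.1 KI and none lower, where 64.3% of all rows were called, 17.9% higher and 46.4% lower. They were the same 8 that were called higher against WT. Against PU.1 KI, which lies below WT for this gene, Bach1 had the largest difference, 1.21 ± 0.06 (limma adjusted p = 5.52e-12), followed by Zfp652 at 1.09 ± 0.05 (adjusted p = 1.08e-12). Smad5 differed by 0.92, Cebpb by 0.82, Fosl2 by 0.68, Rcor1 by 0.65, Tle4 by 0.31 and Arid2 by 0.28. The libraries of 7 genes did not overlap, all but Cebpb, as for 13.4% of all rows in that direction. Smad2 was not called as deposited (0.076, 95% interval -0.031 to 0.18, adjusted p = 0.201), and Hivep2 differed by 0.0037 with no filter (adjusted p = 0.994). In this comparison the median of all tested genes was -0.13, and scaling by median of ratios moved it to -0.00033 and the calls of all rows to 3061 higher and 2953 lower, from 1725 and 4467. Smad2 was then called higher (0.21, adjusted p = 0.000224), which made 9 regulators where 31.8% of rows were higher, and 9 were called under quantile normalization (29.4% of rows). With no filter 8 were called (17.1% of rows). The difference of Smad2 between the mutants, like its difference between PU.1 KI and WT, therefore rests on the scaling.

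**Figure D4:**
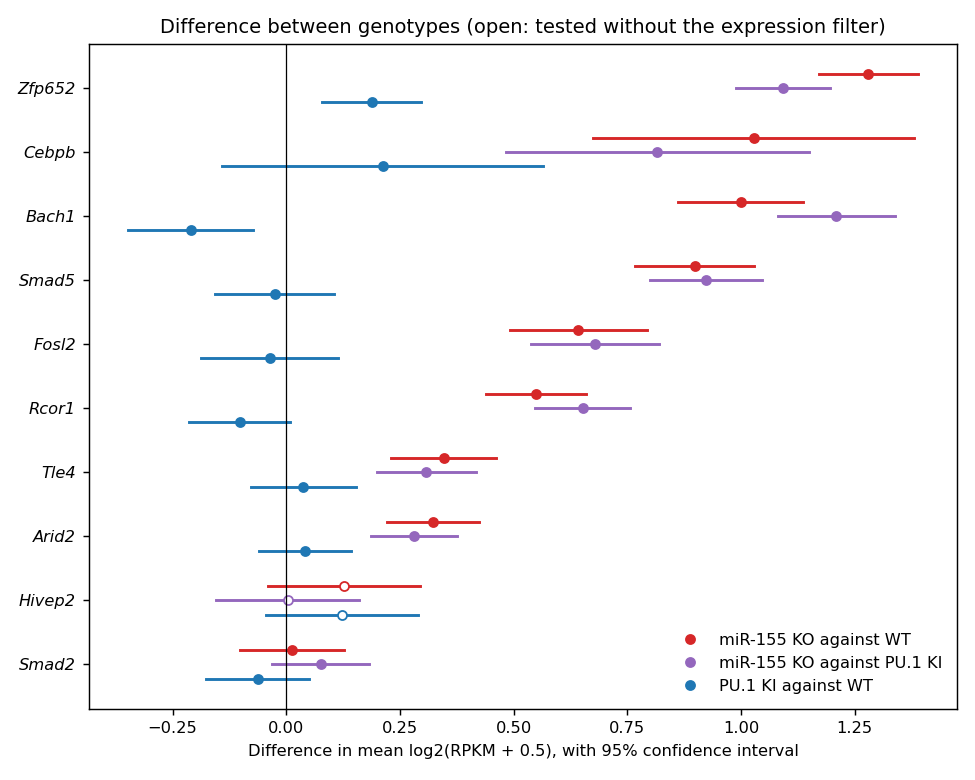
Difference in mean log2(RPKM + 0.5) between genotypes for each regulator (points) with its 95% confidence interval (lines), by comparison; open points were tested without the filter on low values. The intervals of miR-155 KO against WT lie above 0 for 8 genes, from 1.28 for Zfp652 to 0.32 for Arid2, and those of PU.1 KI against WT include 0 for all but Zfp652 and Bach1.

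RPKM is per length, but which length the authors divided by is not stated in the labels, so the order between genes of different structure holds only on their scale. In WT the order was Rcor1 at 8.08 RPKM, Tle4 at 7.69, Smad2 at 7.61, Arid2 at 6.75, Smad5 at 2.77, Bach1 at 1.67, Zfp652 at 1.50, Fosl2 at 0.854, Hivep2 at 0.710 and Cebpb at 0.580. Neighbours overlapped among Rcor1, Tle4 and Smad2 and again among Fosl2, Hivep2 and Cebpb, and the other neighbours in that order did not. In miR-155 KO Rcor1 (12.0) and Tle4 (9.91) stayed on top, Arid2 (8.56) passed Smad2 (7.69), Zfp652 (4.37) passed Bach1 (3.84), and Cebpb (1.72) and Fosl2 (1.61) passed Hivep2 (0.822). The pair of Cebpb and Fosl2 was the only one of neighbours that overlapped there. In PU.1 KI the first 4, Tle4, Rcor1, Smad2 and Arid2, overlapped with their neighbours in that order. The regulators with the largest ratios were thus among the low genes in WT and those with the smallest ratios, Smad2, Arid2 and Tle4, among the high ones, apart from Hivep2.

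The differences were set beside those of all other tested genes with the same best seed match in their longest annotated 3′ UTR, which are descriptions with no test. In miR-155 KO against WT, of 306 other genes with an 8mer, 52.9% were called higher and 14.1% lower, with a median log2 difference of 0.18. Of 548 with a 7mer-m8 41.8% were called higher (median 0.089), of 420 with a 7mer-A1 38.1% (0.047), of 708 with a 6mer 29.0% (-0.015) and of 7412 with none 24.3% (-0.077). The share called higher thus fell with each weaker class, and so did the median length of the UTR, from 2728 nt with an 8mer to 916.5 nt with none, so match and length both differ between the 8mer genes and those with none. Classes of like median length were 8mer and 7mer-m8 genes (2728 and 2716.5 nt), with 52.9% and 41.8% called higher. The 7mer-A1 and 6mer genes (2260.5 and 2233.5 nt) were also alike in median length, with 38.1% and 29.0%. Single genes were not matched for length, and the parts of match and length in these shares were not tested. Genes with an 8mer and at least 1 more match of 7 or more letters, 84 in all, were called higher in 60.7%, against 111 of the 222 with an 8mer alone. In PU.1 KI against WT the classes ran the other way in the median, from 0.029 with an 8mer to 0.083 with none, with 19.6% and 24.7% called higher.

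Within these classes the regulators were spread widely. Zfp652 lay between the 97th and 98th percentiles of the other 8mer genes, Cebpb and Bach1 between the 95th and 96th, Fosl2 between the 86th and 87th, Tle4 between the 65th and 66th and Arid2 between the 64th and 65th. Cebpb and Fosl2 are in this filtered set through their miR-155 KO values. Among the other 7mer-m8 genes Smad5 lay between the 94th and 95th percentiles and Rcor1 between the 87th and 88th. Smad2 lay between the 54th and 55th percentiles of the other 6mer genes, near their middle. The number of matches did not order the regulators: Cebpb with a single 8mer differed by 1.03, and Arid2, with an 8mer, a 7mer-m8 and a 6mer, by 0.32. The A and U content of the 30 bases on each side of the best match also did not: it was 51.7% for the 8mer of Zfp652, 55.0% for that of Fosl2, 68.3% for those of Bach1, Arid2 and Hivep2, 71.1% for that of Tle4 and 71.7% for that of Cebpb. A side was cut where the annotated UTR ended, so Tle4 had only 15 bases after its 8mer. The median over 320 8mers of other tested genes was 61.7%, with sides cut in the same way. Which UTR ends the B cells used was not analysed here.

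**Figure D5:**
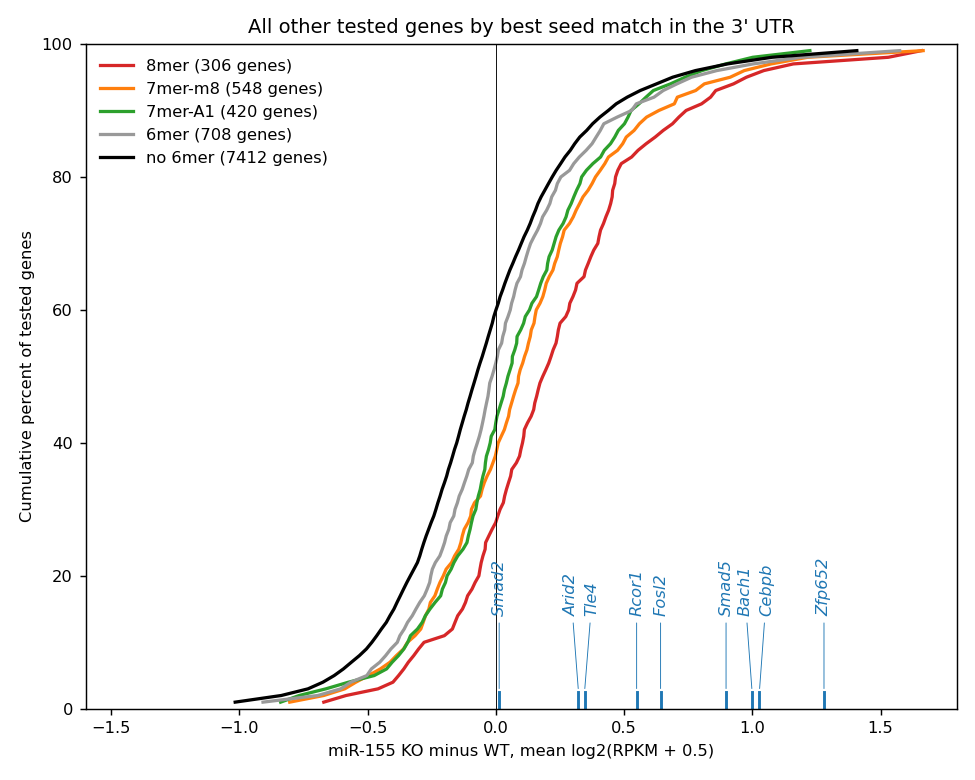
Cumulative percent of all other tested genes (lines, by best seed match in the 3′ UTR) against the difference between miR-155 KO and WT in mean log2(RPKM + 0.5); blue ticks mark the 9 regulators that were tested. The curve of the 306 genes with an 8mer lies to the right of that of the 7412 genes with none over most of the range, and the ticks of all but Smad2 lie at 0.32 or above.

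The 8 regulators called higher in miR-155 KO followed one another over the 14 libraries, with Pearson's r of log2(RPKM + 0.5) from 0.77 to 0.98 over their 28 pairs. All of these pairs share the genotype contrast. After the genotype means were taken out, r ran from -0.34 to 0.77 with a median of 0.24, over libraries that share the RPKM scaling. The 3 genes most like Zfp652 over the 14 libraries were Jarid2 (r = 0.997), Aldh1l2 (0.996) and Anpep (0.996). Those most like Smad5 were Tcf7 (0.996), Abr (0.995) and Klhl22 (0.991), and those most like Bach1 were Cst7 (0.991), 2810407C02Rik (0.988) and Cplx2 (0.987). Rcor1 had mt-Nd3 (0.992), Cst7 (0.992) and 2810407C02Rik (0.991). Fosl2 had Tnfsf8 (0.987), Mier3 (0.981) and Slc44a1 (0.981), and Arid2 had Prkca (0.982), Fmnl2 (0.981) and Picalm (0.981). Tle4 had Kdm2a (0.975), Hmox1 (0.974) and Arhgap1 (0.974), and Cebpb had Zfp703 (0.969), Atp6v1g1 (0.952) and Cdt1 (0.944). For the genes that were not called, the likeness was lower: Glt8d1 (0.885), Msra (0.836) and Polr3f (0.813) for Smad2, and Slc38a9 (0.845), Gabbr1 (0.824) and Zfp810 (0.768) for Hivep2. Genotype means were left in for this likeness, so it largely restates which genes differed between genotypes.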

How the data were processed

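The authors deposited 1 table of RPKM values with a column per library, 22295 rows for 22232 genes, of which 63 rows repeat a gene and were kept as rows of their own. Trim Galore, TopHat and the build NCBIM37 are named, without versions, per the submitters' processing notes. The sources used here do not give the read counter, annotation, strand setting or gene length behind RPKM. Libraries were polyadenylated RNA made with an Illumina TruSeq kit, per the labels' protocols. RPKM was left as deposited. Values were tested as log2(RPKM + 0.5) with limma 3.58.1 in R 4.3.3: 1 mean per genotype over all 14 libraries, intensity trend, two-sided, Benjamini-Hochberg adjusted p under 0.05 over the 9627 rows in which 4 or more libraries reached 1 RPKM. The fit was tested on simulated data. Depth was taken as the value that made most of the 250 lowest values of short genes whole reads within 0.01. Seed matches were found in the longest 3′ UTR of the basic protein-coding transcripts of GENCODE M21.

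The regulators, the partner lists and the marker lists were chosen with earlier results of these data known. Named genes are all 10 regulators, up to 3 tested genes per partner list with the smallest adjusted p in miR-155 KO against WT, and the 3 genes most correlated with each regulator. Where a partner had more than 1 row, as Hivep3 did, the higher row was used. Alternatives were pseudocounts of 0.1 and 1, no filter, a filter of 5 RPKM, median-of-ratios and quantile scaling, fits of 2 genotypes, a replicate block and leaving out each library. Other steps ran in Python 3.11.15 (pandas 2.3.3, numpy 2.4.6, matplotlib 3.10.9).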

Additional observations from a re-analysis of the deposited data

Results flagged for a closer look

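Of 30 groups of libraries, 10 regulators in 3 genotypes, 3 held a library far from the others by Dixon's gap test, which flags about 1 in 20 groups by chance. Bach1 was 1.68 RPKM in PU.1 KI 4, with the other PU.1 KI libraries at 1.25 to 1.37, and this library alone overlaps WT. Hivep2 was 0.984 RPKM in PU.1 KI 3, with the others at 0.753 to 0.814. Tle4 was 10.97 RPKM in miR-155 KO 5, with the others at 9.42 to 9.73, and this library also stood apart on the first principal component.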

How the results depend on the processing

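The 8 regulators called higher in miR-155 KO against WT, and the 8 against PU.1 KI, stayed at 8 under pseudocounts of 0.1 and 1, fits of 2 genotypes, no filter and each left-out library. A filter of 5 RPKM, which tests 5 regulators, left 4, 0 and 4 calls for miR-155 KO against WT, PU.1 KI against WT and miR-155 KO against PU.1 KI. In PU.1 KI against WT the 2 calls became 4 under quantile normalization, all lower, and 1 to 2 when each library was left out. Single genes changed sign only where they were not called: Arid2 in PU.1 KI against WT to -0.042 and -0.049 and Tle4 to -0.046 and -0.044 under median-of-ratios and quantile scaling, and, over left-out libraries, Fosl2 (-0.10 to 0.0051, positive without WT 2) and Smad5 (-0.069 to 0.014, positive without PU.1 KI 1) in PU.1 KI against WT and Smad2 in miR-155 KO against WT (-0.0024 to 0.030, negative without miR-155 KO 5). Quantile normalization gave 0.10 (limma adjusted p = 0.134) for Zfp652, -0.19 (0.00448) for Rcor1 and -0.14 (0.0156) for Smad2 in PU.1 KI against WT, and 0.19 (0.000609) for Smad2 between the mutants. The causes of these changes were not tested. Cebpb had 21 to 81 recovered reads in WT and PU.1 KI, and the part of counting error in its spread was not tested.

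Libraries with the same replicate number did not clearly pair. The deviations of 13 same-numbered pairs correlated at -0.39 to 0.47 (median 0.11, 7 above 0.1). Those of 52 other pairs correlated at -0.56 to 0.57 (median -0.0097, 18 above 0.1). A fit with the replicate number as a block kept 8, 2 and 8 calls, and moved Smad2 in miR-155 KO against WT to -0.0040.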
